A study of Mus musculus with 30 samples.

Results

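The genes described here code for the enzymes that take glucose through glycolysis to pyruvate and lactate, build and break down glycogen, and make glycerol phosphate from a glycolytic intermediate. The list held 31 symbols chosen by function, and 30 of them were found among the 11249 genes of the deposited expression table. The symbol Aldoa belongs to 2 gene models in that table, so that 31 genes were described. The symbol Pgm2 was not matched by the list and was not analysed here. The genes were described by 8 roles. Glucose entry was covered by Slc2a4, Hk1 and Hk2. Upper glycolysis was covered by Gpi1, Pfkm, Fbp2, both Aldoa models and Tpi1. Lower glycolysis was covered by Gapdh, Pgk1, Pgam1, Pgam2, Eno1, Eno3 and Pkm. Lactate was covered by Ldha and Ldhb, and glycerol phosphate by Gpd1 and Gpd2. Glycogen synthesis was covered by Gys1, Gyg, Gbe1, Ugp2 and Pgm1, and glycogen breakdown by Pygm, Phka1, Phkb and Phkg1. Pfkfb1 and Pfkfb3 code for forms of the PFK-2 enzyme that makes and removes fructose 2,6-bisphosphate.

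Fast skeletal muscle fibres hold glycogen as a local fuel store and use glycolysis to supply ATP during short contractions. Several steps have a muscle form of the enzyme and a more widely expressed form, and the muscle forms come up as fibres mature. Glycogen chains are started by glycogenin, lengthened by glycogen synthase from UDP-glucose and branched by a branching enzyme, and they are shortened by glycogen phosphorylase, which phosphorylase kinase switches on.

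The study measured polyA RNA by sequencing in 2 muscles of male mice, 3 days after a sham operation or a transection of the spinal cord at thoracic level 3 (T3) or 9 (T9). The gastrocnemius, a hindlimb muscle, had 4 libraries in each surgery group, and the triceps brachii, a forelimb muscle, had 6. T3 and T9 were both compared with the same sham libraries of their muscle, and the labels give no age or strain. The mice of 12 gastrocnemius libraries also gave a triceps library, by the mouse number in the labels.

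Library depth was between 13293557 and 23398801 reads, except for triceps T3 replicate 5 with 88826845 reads, and the 31 genes took 3.26% to 6.37% of the reads. Fast-fibre markers (Acta1, Ckm, Myh4 and others) were all in the table, 12 of 12, and their summed level was 116162 CPM (counts per 1000000 reads) or more in every library. Slow-fibre markers, 9 of 9 in the table and with Myh2 of fast oxidative fibres counted among them, reached at most 6054 CPM. Markers of fast skeletal muscle thus dominated in both tissues. One library stood apart: in triceps sham replicate 4 the 8 macrophage markers in the table summed to 999.6 CPM, against 75.8 CPM or less in every other library. Without it the T3 comparison in triceps still gave 19 called genes of the 31. Libraries also differed in the median log2 level over all genes, from 3.29 to 4.33, and the 4 lowest were gastrocnemius sham replicate 4, triceps sham replicates 3 and 4 and triceps T9 replicate 1. All values come from bulk tissue, so fewer cells of a type and less RNA per cell cannot be told apart. Within a muscle, samples were compared as separate libraries, and p-values set a group difference against the spread between them. Comparisons between the muscles were made within mice.

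At 2 steps of lower glycolysis the list holds both a muscle form and a widely expressed form, and the 2 forms of a pair had different values after injury. The muscle forms are Pgam2 (phosphoglycerate mutase) and Eno3 (β-enolase), the wider forms Pgam1 and Eno1 (α-enolase). Their promoters are shown so that the forms of a pair can be compared in sequence beside their values. Each line gives the 250 bases before a transcription start from RefSeq (GRCm38.p6), 5′ to 3′ on the gene's strand, with CG dinucleotides in capitals.
Pgam2, chr11:5803797-5804046, minus strand: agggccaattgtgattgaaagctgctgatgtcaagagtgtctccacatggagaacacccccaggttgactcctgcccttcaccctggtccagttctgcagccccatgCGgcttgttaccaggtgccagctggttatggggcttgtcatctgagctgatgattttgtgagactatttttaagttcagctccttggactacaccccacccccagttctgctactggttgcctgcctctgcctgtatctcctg
Pgam1, chr19:41911621-41911870, plus strand: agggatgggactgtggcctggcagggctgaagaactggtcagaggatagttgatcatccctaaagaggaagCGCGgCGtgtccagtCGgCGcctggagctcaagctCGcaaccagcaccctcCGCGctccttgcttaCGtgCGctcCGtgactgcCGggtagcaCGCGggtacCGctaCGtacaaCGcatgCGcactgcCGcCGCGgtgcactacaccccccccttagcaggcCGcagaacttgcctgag
Eno3, chr11:70656926-70657175, plus strand: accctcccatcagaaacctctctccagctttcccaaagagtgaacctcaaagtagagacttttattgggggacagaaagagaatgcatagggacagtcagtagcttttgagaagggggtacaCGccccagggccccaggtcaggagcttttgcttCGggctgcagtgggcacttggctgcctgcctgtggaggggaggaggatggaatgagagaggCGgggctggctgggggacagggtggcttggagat
Eno1, chr4:150236458-150236707, plus strand, the first of 3 listed starts: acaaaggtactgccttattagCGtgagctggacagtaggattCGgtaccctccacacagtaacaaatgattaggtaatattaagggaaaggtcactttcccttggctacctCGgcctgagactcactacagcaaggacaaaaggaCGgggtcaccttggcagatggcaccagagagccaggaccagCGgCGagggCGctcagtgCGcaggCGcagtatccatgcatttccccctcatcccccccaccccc
The muscle forms had 1 (Pgam2) and 3 (Eno3) CG dinucleotides in this window, and the wider forms had 22 (Pgam1) and 9 (Eno1). The other 2 starts of Eno1 had 21 and 19. Over 10773 promoters of genes in the table the median was 16, 9.62% had 3 or fewer, and 30.0% had 22 or more.

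In sham gastrocnemius the most abundant of the 31 transcripts per kilobase of exon was Aldoa, the muscle aldolase, at 6421 ± 887 CPM per kb (SD, n = 4). Eno3 followed at 3957 ± 656, Pgam2 at 2565 ± 641 and Pygm, muscle glycogen phosphorylase, at 1943 ± 840 CPM per kb (SD, n = 4). The intervals of 1 SD overlapped between Pgam2 and Pygm, and between no other neighbours among these 4. Pfkm, Ldha and Tpi1 lay close together, at 1040 ± 401, 1021 ± 225 and 916 ± 212 CPM per kb (SD, n = 4), a spread that does not order them. At the other end Gbe1, the branching enzyme, was at 9.18 ± 2.49, Pgam1 at 5.62 ± 0.97 and Hk1 at 0.73 ± 0.40 CPM per kb (SD, n = 4). Sham triceps had the same genes at the top, with Aldoa at 5534 ± 1144, Eno3 at 3527 ± 641 and Pgam2 at 2801 ± 634 CPM per kb (SD, n = 6). The levels of Gapdh, Pgk1 and Ldha are uncertain, because near-identical copies (Gapdh-ps15, Pgk1-rs7 and Ldha-ps2) are also in the table and reads may have been split between them. Aldoa and Pgam1 have named copies in the genome without a row in the table. Their reads may have been lost to these copies, which also limits the ratios that use Pgam1. Copies under other names were not searched for, so the same may hold for further genes.

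A gene was called higher or lower at a limma adjusted p under 0.05 over all genes tested, 11248 in gastrocnemius and 11249 in triceps and between the muscles. After T3 injury 4 of the 31 genes were called higher and 12 lower in gastrocnemius, where 27.1% of all genes were called higher and 6.65% lower (33.7% in either direction). After T9 injury 2 were called higher and 12 lower there, beside 37.6% higher and 5.67% lower among all genes (43.2% in either direction). The lower calls thus made up a larger share of the 31 genes than of all genes at both levels, and the higher calls a smaller share. In triceps T3 gave 9 higher and 10 lower calls, beside 19% and 4.32% of all genes (23.3% in either direction). T9 gave no call among the 31 in triceps, where 0.00889% of all genes were called, which is 1 gene. At an unadjusted p under 0.05 there were 3 (Pgam1, Ldha and Ldhb), and limma with voom weights on recovered reads also called 0 of the 31.

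Some changes were large enough that no injured library overlapped with any sham library. In gastrocnemius this held for 4 higher and 12 lower genes of the 31 after T3, beside 23.9% and 5.82% of all genes, and for 2 higher and 11 lower genes after T9, beside 34.8% and 4.84%. In triceps, with more libraries per group, it held for 3 higher and 4 lower genes after T3, beside 5.63% and 1% of all genes. It held for none after T9, beside 0.809% and 0.0444%. The higher genes in triceps were Gyg, Gbe1 and Ugp2, and the lower ones Fbp2, Tpi1, Eno3 and Ldha.

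The median log2 change of the 31 genes was −0.28 after T3 and −0.43 after T9 in gastrocnemius, beside 0.27 and 0.40 over all genes. In triceps it was −0.15 after T3 and 0.08 after T9, beside 0.23 and 0.17. With the library median as a covariate the calls after T3 were 2 higher and 15 lower in gastrocnemius, and 5 higher and 15 lower in triceps. Centring each library on its median brought the medians over all genes to about 0, and the calls were then 3 higher and 15 lower (T3) and 1 higher and 17 lower (T9) in gastrocnemius, 8 higher and 11 lower in triceps after T3, and 0 in triceps after T9. In the fits with no changed setting, Hk1, Pfkm, Aldoa, Eno1, Pkm, Pygm, Phka1, Phkb and Pfkfb3 were called against sham in neither muscle at neither level. With centring, Pfkm, Aldoa and Pkm were called lower in gastrocnemius after T9, and Phka1 after T3. Aldoa, Pfkm, Pkm and Pygm were among the most abundant of the set.

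**Figure D1:**
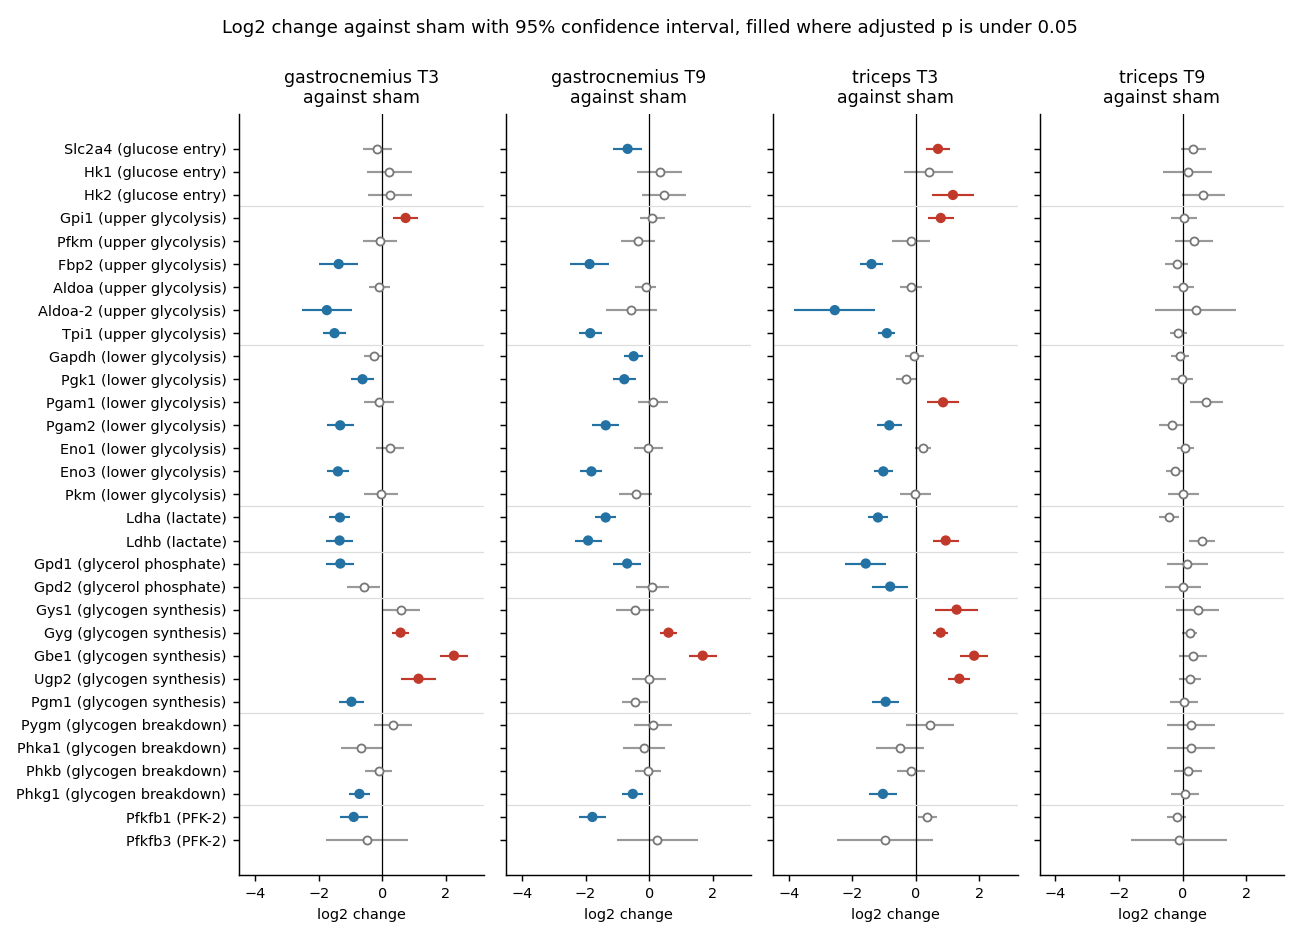
Log2 change against sham (horizontal axis, with the 95% confidence interval of the limma fit) of each of the 31 genes, ordered by role, in 4 panels for T3 and T9 in gastrocnemius (n = 4 per group) and triceps (n = 6 per group). Filled points have an adjusted p under 0.05. Gbe1 lies farthest to the right in gastrocnemius, with 2.25 after T3 and 1.68 after T9, and no point is filled in triceps after T9.

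Of the 3 glucose-entry genes 1 was called in gastrocnemius, Slc2a4 after T9, and 2 rose in triceps after T3. Slc2a4 codes for GLUT4, the insulin- and contraction-responsive glucose transporter. Its level in gastrocnemius was 565, 610, 610 and 324 CPM in sham, 436, 597, 374 and 443 CPM after T3, and 358, 365, 292 and 273 CPM after T9. The T9 libraries lay low and overlapped only with sham replicate 4, the lowest of its group. The T9 change was −0.68 ± 0.21 on the log2 scale (SE, limma adjusted p = 0.021), and the T3 change of −0.16 was not called. The T9 call rested on single libraries: it was lost without sham replicate 1 (−0.63, adjusted p = 0.059), T9 replicate 3 (−0.63, adjusted p = 0.056) or T9 replicate 4 (−0.60, adjusted p = 0.065). In triceps Slc2a4 was at 210 to 595 CPM (median 449) in sham, 481 to 832 CPM (median 597) after T3 and 328 to 685 CPM (median 519) after T9. The groups overlapped, and the T3 rise was 0.69 ± 0.18 (SE, limma adjusted p = 0.012). Hk2, the insulin-responsive hexokinase that traps glucose as glucose 6-phosphate, was at 111 to 464 CPM (median 278) in triceps sham and at 224 to 882 CPM (median 615) after T3. It rose by 1.16 ± 0.32 (SE, limma adjusted p = 0.014), again with overlapping ranges. Both calls were absent in the 4 libraries per group with label number 60 alone, with 0.77 (adjusted p = 0.067) for Slc2a4 and 1.34 (adjusted p = 0.053) for Hk2. They were also absent when the library median was a covariate, with 0.32 (adjusted p = 0.081) for Slc2a4 and 0.41 (adjusted p = 0.069) for Hk2. The Slc2a4 call was also lost after quantile normalization (0.54, adjusted p = 0.060) and with no term for the label number (0.69, adjusted p = 0.067), and the Hk2 call without the 4 libraries of lowest median (0.77, adjusted p = 0.086). Hk1, the widely expressed hexokinase, stayed under 11 CPM in every library and was not called.

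Among the upper glycolysis genes Tpi1 and Fbp2 fell and Gpi1 rose. Tpi1, the isomerase that balances the 2 triose phosphates, was at 3322, 2025, 2161 and 2577 CPM in gastrocnemius sham, 884, 1021, 841 and 758 CPM after T3, and 798, 732, 625 and 605 CPM after T9. Every injured library lay below every sham library. The fitted levels were 0.352 of sham after T3 (−1.51 ± 0.17 log2, SE, limma adjusted p = 4.6e-05) and 0.277 of sham after T9 (−1.85 ± 0.17, adjusted p = 1.3e-05). In triceps Tpi1 was at 1988 to 2405 CPM (median 2205) in sham, 952 to 1449 CPM (median 1160) after T3 and 1799 to 2279 CPM (median 1964) after T9. The T3 range lay wholly below both others, with a change of −0.91 ± 0.13 (SE, limma adjusted p = 0.0001), while sham and T9 overlapped. Fbp2, the muscle fructose bisphosphatase that opposes phosphofructokinase, was at 58.5, 60.19, 74.2 and 40.2 CPM in gastrocnemius sham, 27.3, 33.1, 18.7 and 13.6 CPM after T3, and 23.2, 11.6, 14.8 and 14.6 CPM after T9. The injured libraries did not overlap with sham. The changes were −1.38 ± 0.28 after T3 and −1.87 ± 0.28 after T9 (SE, limma adjusted p = 0.0028 and 0.00041). In triceps Fbp2 fell after T3 by 1.40 on the log2 scale (limma adjusted p = 4.1e-05), from 33.3 to 55.6 CPM in sham to 12.9 to 19.9 CPM, and after T9 it was at 24.1 to 52.0 CPM.

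Gpi1, the isomerase that turns glucose 6-phosphate into fructose 6-phosphate, moved the other way. It was at 813, 1057, 1022 and 571 CPM in gastrocnemius sham, 1432, 1629, 1345 and 1209 CPM after T3, and 862, 909, 876 and 949 CPM after T9. The T3 libraries lay above all sham and T9 libraries. The T3 rise was 0.73 ± 0.18 in gastrocnemius and 0.78 ± 0.20 in triceps (SE, limma adjusted p = 0.0084 and 0.0085). With the library median as a covariate these values were 0.33 (adjusted p = 0.29) and 0.45 (adjusted p = 0.058). The abundant Aldoa gene model (ENSMUSG00000030695, chr7:126795234-126800751, GRCm38, minus strand) was at 14996 to 21002 CPM in gastrocnemius sham, 16586 to 18519 CPM after T3 and 16382 to 18882 CPM after T9. It was called in no comparison with no changed setting. With each library centred on its median it was called lower in gastrocnemius after T9 (−0.51, limma adjusted p = 0.023). Scaling by the median of ratios also gave a call there after T3 and after T9. The second Aldoa model (Aldoa-2 in the plot of changes, ENSMUSG00000114515, chr7:126800790-126809108, same strand) lies upstream of it. The second model ends next to the start of the first and had far fewer reads. In gastrocnemius it was at 50.5, 63.7, 71.3 and 45.7 CPM in sham, 13.3, 7.32, 35.9 and 23.4 CPM after T3, and 36.7, 37.2, 51.3 and 31.8 CPM after T9. Its T3 libraries lay below sham in gastrocnemius and overlapped sham in triceps, with changes of −1.75 ± 0.37 and −2.55 ± 0.61 (SE, limma adjusted p = 0.0033 and 0.0061). Within label number 60 the triceps value was −1.46 (adjusted p = 0.12). The sources do not state how reads were divided between the neighbouring models.

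Lower glycolysis had 7 genes, of which 3 were called lower after T3 and 4 after T9 in gastrocnemius, and none higher. Among all genes 6.65% and 5.67% were called lower there, and 27.1% and 37.6% higher, so the lower calls made up a larger share of these 7 genes than of all genes. Their share of all reads in gastrocnemius was 1.44% ± 0.14 in sham, 0.803% ± 0.048 after T3 and 0.641% ± 0.054 after T9 (SD, n = 4). In triceps it was 1.24% ± 0.13 in sham, 0.787% ± 0.077 after T3 and 1.08% ± 0.12 after T9 (SD, n = 6). Eno3 turns 2-phosphoglycerate into phosphoenolpyruvate, and had 8323, 5785, 6176 and 7241 CPM in gastrocnemius sham. It had 2796, 2778, 2138 and 2676 CPM there after T3, and 2290, 1992, 1724 and 1780 CPM after T9. Sham and injured libraries did not overlap, with a change of −1.40 ± 0.16 after T3 and −1.82 ± 0.16 after T9 (SE, limma adjusted p = 5.1e-05 and 1.1e-05). In triceps Eno3 was at 5184 to 8245 CPM (median 5869) in sham, 2312 to 3496 CPM (median 2941) after T3 and 4581 to 6143 CPM (median 5130) after T9. The T3 libraries lay below all others in triceps, with a change of −1.03 ± 0.14 (SE, limma adjusted p = 8.7e-05), and the T9 change of −0.23 was not called.

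Pgam2, one step before enolase, was at 2546, 1653, 1731 and 2688 CPM in gastrocnemius sham, 732, 1062, 860 and 737 CPM after T3, and 1043, 731, 763 and 762 CPM after T9. All injured libraries lay below sham. The changes were −1.33 ± 0.20 and −1.37 ± 0.20 (SE, limma adjusted p = 0.0003 at both levels). With the library median as a covariate the T9 value was −0.78 (adjusted p = 0.10), and over the 30 libraries the deviations of Pgam2 from its group means had r = −0.74 with the library median. The part of the library median in this result was not tested further. In triceps Pgam2 was at 1712 to 3196 CPM (median 2297) in sham and 900 to 2047 CPM (median 1232) after T3. These ranges overlapped, and the T3 change was −0.84 ± 0.19 (SE, limma adjusted p = 0.0042). Pgk1, which makes the first ATP of the pathway, fell in gastrocnemius by 0.63 after T3 and by 0.78 after T9 on the log2 scale (limma adjusted p = 0.011 and 0.0031). It had 862 to 1452 CPM in sham against 596 to 812 CPM after T3 and 595 to 681 CPM after T9. Gapdh, the dehydrogenase before it, was called only after T9 in gastrocnemius, with 402 to 631 CPM in sham, 341 to 357 CPM after T9 and a change of −0.49 ± 0.14 (SE, limma adjusted p = 0.014). With each library centred on its median, Gapdh was also called lower there after T3 (−0.55, limma adjusted p = 0.0059). Pkm, pyruvate kinase at the last step, was at 1868 to 5425 CPM in gastrocnemius sham and 3102 to 3679 CPM after T3. Its changes of −0.04 and −0.43 after T3 and T9 were not called, but in 7 other settings the T9 change was. That value was −0.83 with centring (limma adjusted p = 0.012) and −1.43 with the library median as a covariate (adjusted p = 0.013). The deviations of Pkm had r = 0.82 with the library median.

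**Figure D2:**
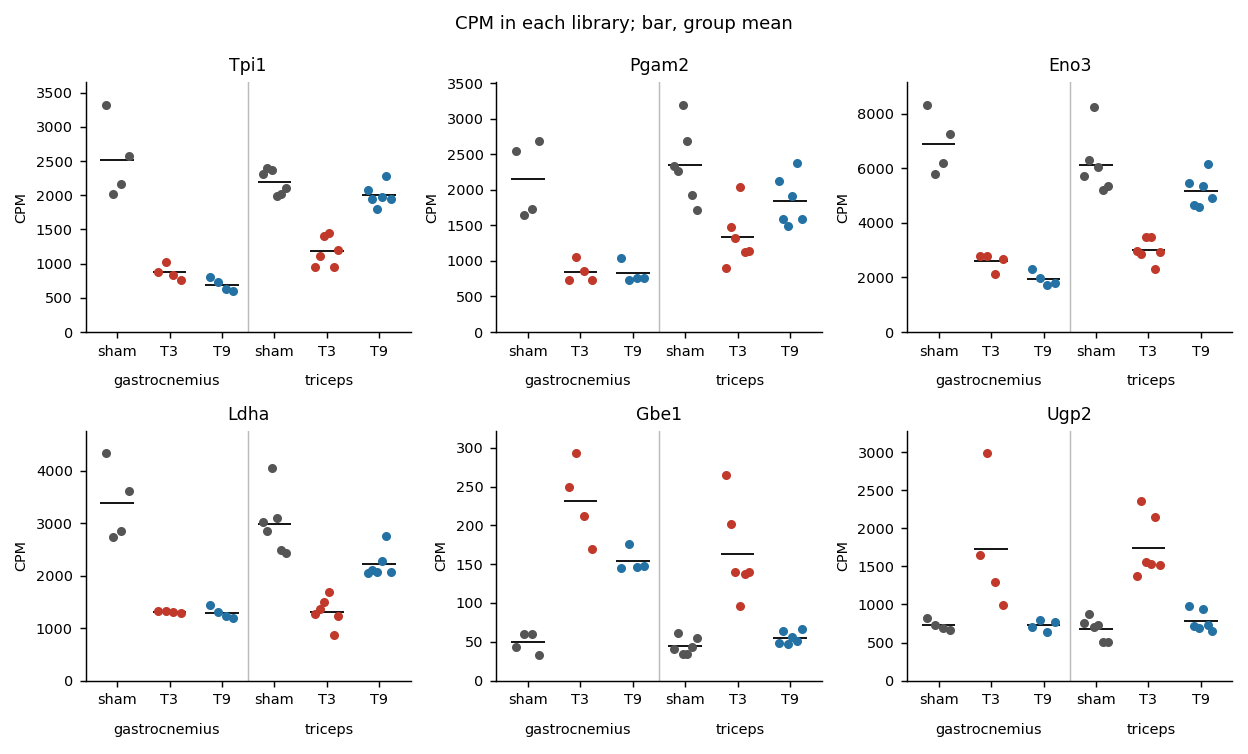
CPM (vertical axis, from 0) in each of the 30 libraries for Tpi1, Pgam2, Eno3, Ldha, Gbe1 and Ugp2, with a point per library and a bar at each group mean (n = 4 in gastrocnemius, n = 6 in triceps). In gastrocnemius the T3 and T9 points of Tpi1, Pgam2, Eno3 and Ldha all lie below the sham points and those of Gbe1 all lie above, while in triceps the T3 points of Tpi1, Eno3, Ldha, Gbe1 and Ugp2 do not overlap with sham.

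The markers of fast fibres, where glycolytic enzymes are abundant, were read beside these values. The sum of the 12 markers in gastrocnemius was 159627 to 194673 CPM in sham, 151730 to 172002 CPM after T3 and 154226 to 174176 CPM after T9, with overlap. In triceps it was 133015 to 181378 CPM in sham, 116162 to 141833 CPM after T3 and 118133 to 153814 CPM after T9, also with overlap. Of the 12, 4 were called lower and 1 higher in gastrocnemius after T3, 4 lower and 0 higher after T9, and 4 lower and 0 higher in triceps after T3. Over all genes the lower calls were 6.65%, 5.67% and 4.32% in these comparisons and the higher calls 27.1%, 37.6% and 19%, so that lower calls were a larger share of the markers than of all genes. The part of fast-fibre content in the glycolysis values was not tested.

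The widely expressed partners of the muscle forms were not called lower in any comparison with sham. Pgam1 was at 12.4, 12.7, 10.99 and 8.48 CPM in gastrocnemius sham, 6.46, 10.5, 11.8 and 13.9 CPM after T3, and 13.4, 11.7, 11.9 and 11.03 CPM after T9. The groups overlapped and no change was called there. In triceps Pgam1 had 5.98 to 15.2 CPM (median 11.3) in sham, 9.86 to 28.4 CPM (median 19.5) after T3 and 14.3 to 22.2 CPM (median 18.96) after T9. It rose after T3 by 0.85 ± 0.24 (SE, limma adjusted p = 0.018) with overlapping ranges, and this was not called within label number 60 (0.76, adjusted p = 0.11) or with the library median as a covariate (0.71, adjusted p = 0.061). After T9 its difference was 0.74, which was not called (adjusted p = 0.32). Eno1 lay between 33.5 and 76.5 CPM in all gastrocnemius libraries and between 29.3 and 70.5 CPM in all triceps libraries, and was not called.

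A ratio of 2 genes within a library does not depend on how libraries are scaled. The log2 ratio of Eno3 to Eno1 was lower than in sham by a difference of −1.64 ± 0.32 after T3 and −1.79 ± 0.31 after T9 in gastrocnemius (SE, n = 4 per group), with no overlap. In triceps it differed by −1.25 ± 0.34 after T3 (SE, n = 6 per group), again with no overlap, and by −0.32 ± 0.33 after T9 with overlap. The log2 ratio of Pgam2 to Pgam1 lay below all sham libraries in each of the 4 comparisons. Its differences were −1.23 ± 0.37 and −1.49 ± 0.29 in gastrocnemius and −1.69 ± 0.34 and −1.08 ± 0.31 in triceps after T3 and T9 (SE). In triceps after T9, where none of the 31 genes was called, this ratio lay outside the sham range by a narrow margin. Relative to the sham mean, the highest T9 library was at −0.3845 and the lowest sham library at −0.3817. Sham replicate 3 was at 1.30, and the sham median was −0.23. The log2 ratio of Hk2 to Hk1 differed from sham by 0.03 ± 0.12 and 0.14 ± 0.08 in gastrocnemius after T3 and T9 (SE). In triceps it differed by 0.76 ± 0.22 and 0.49 ± 0.17 (SE), and the ranges overlapped with sham in all 4 comparisons. No test was made of these ratios, since the members were chosen with results known.

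The library median moved with the ratios of Eno3 to Eno1 and Pgam2 to Pgam1. Its group mean in gastrocnemius was 3.90 ± 0.18 in sham, 4.17 ± 0.10 after T3 and 4.30 ± 0.02 after T9 (log2 CPM, SD, n = 4), and in triceps 3.74 ± 0.28, 3.97 ± 0.13 and 3.91 ± 0.14 (SD, n = 6). Over the 30 libraries the deviations from group means had r = −0.82 with the library median for Eno3 to Eno1 and −0.70 for Pgam2 to Pgam1. Without the 4 libraries of lowest median the Eno3 to Eno1 differences were −1.36 and −1.52 in gastrocnemius and −0.94 and −0.16 in triceps after T3 and T9, and those of Pgam2 to Pgam1 were −0.99, −1.25, −1.44 and −0.86. With the library median as a covariate within each muscle, Eno3 to Eno1 differed by −0.89 and −0.71 in gastrocnemius and by −0.71 and 0.08 in triceps. Pgam2 to Pgam1 then differed by −0.33 and −0.19 in gastrocnemius and by −1.27 and −0.78 in triceps. The gastrocnemius differences were thus 1.5 times smaller or more with this covariate. In triceps Eno3 to Eno1 also moved toward sham, from −1.25 to −0.71 after T3 and from −0.32 to 0.08 after T9. The differences of Pgam2 to Pgam1 in triceps were less reduced. Both settings were chosen after seeing the data, and the part of the library median in the ratios was not tested further.

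**Figure D3:**
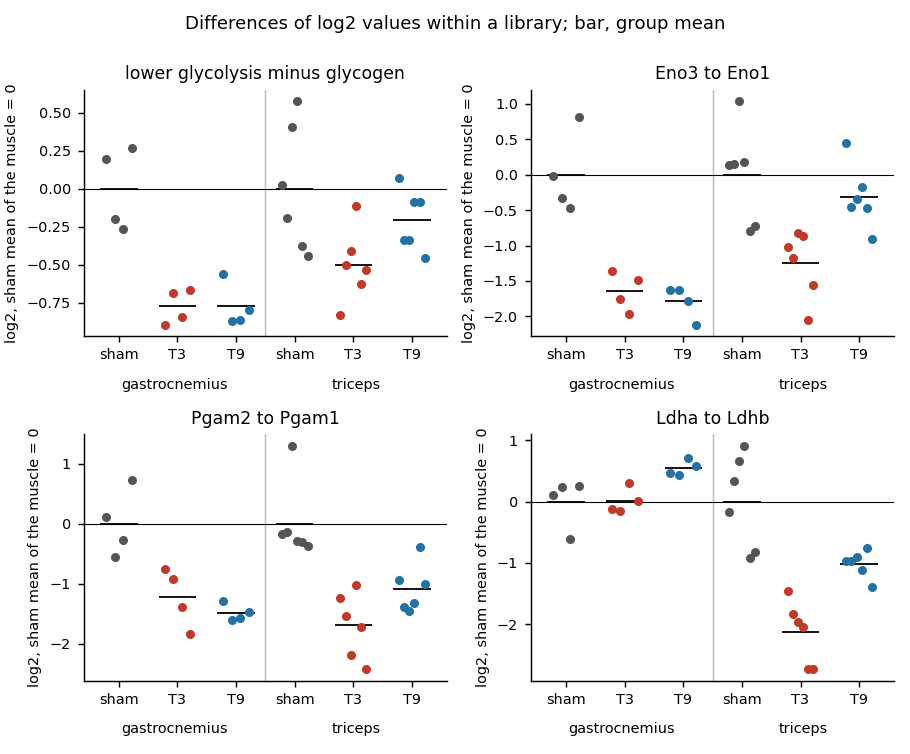
Log2 difference within each library (vertical axis, with the sham mean of the muscle at 0) for 4 measures: the mean of the lower glycolysis genes minus the mean of the glycogen genes, Eno3 to Eno1, Pgam2 to Pgam1, and Ldha to Ldhb. Points are libraries, and the Pgam2 to Pgam1 points of both injury levels lie below the sham points in both muscles. In triceps after T9 the margin is narrow (−0.3845 against −0.3817).

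The lactate pair went the same way in gastrocnemius and opposite ways in triceps. Ldha, the muscle subunit of lactate dehydrogenase, was at 4335, 2733, 2845 and 3610 CPM in gastrocnemius sham, 1327, 1323, 1315 and 1297 CPM after T3, and 1433, 1315, 1225 and 1187 CPM after T9. No injured library reached the sham range, and the changes were −1.34 ± 0.15 and −1.37 ± 0.15 (SE, limma adjusted p = 5.1e-05 and 6e-05). In triceps Ldha was at 2433 to 4052 CPM (median 2945) in sham, 866 to 1694 CPM (median 1310) after T3 and 2049 to 2760 CPM (median 2082) after T9. The T3 libraries lay below all others, with a change of −1.19 ± 0.15 (SE, limma adjusted p = 4.5e-05), and the T9 difference of −0.42 was not called (adjusted p = 0.36).

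Ldhb, the subunit that is abundant in heart and oxidative fibres, was at 250, 145, 271 and 190 CPM in gastrocnemius sham, 90.3, 92.1, 66.2 and 80.6 CPM after T3, and 64.7, 60.56, 46.7 and 49.3 CPM after T9. Every injured library was below every sham library there. In triceps the order was turned around, with 94.5 to 270 CPM (median 172) in sham, 200 to 471 CPM (median 335) after T3 and 222 to 313 CPM (median 253) after T9. The T3 and sham ranges overlapped in triceps. The changes in gastrocnemius were −1.35 ± 0.20 after T3 and −1.92 ± 0.20 after T9 (SE, limma adjusted p = 0.00029 and 2.8e-05), and in triceps T3 gave 0.94 ± 0.19 (SE, adjusted p = 0.0023). The log2 ratio of Ldha to Ldhb was therefore about level with sham in gastrocnemius after T3 (0.01 ± 0.23), above sham after T9 (0.55 ± 0.21, no overlap), and below sham in triceps after T3 (−2.13 ± 0.38, SE, no overlap). In triceps after T9 it differed by −1.02 ± 0.33 (SE), and the ranges overlapped. Its r with the library median over the 30 libraries was −0.54, and with that median as a covariate the differences were 0.20 and 0.83 in gastrocnemius and −1.74 and −0.73 in triceps after T3 and T9. Without the 4 libraries of lowest median they were 0.09, 0.64, −1.73 and −0.63. Slow-fibre markers, with the fast oxidative myosin gene Myh2 counted among them, moved with Ldhb in gastrocnemius. Their sum over 9 genes was 1847 to 5083 CPM in sham, 1030 to 1436 CPM after T3 and 784 to 1323 CPM after T9. There 3 of 9 fell after T3 and 4 of 9 after T9, beside 6.65% and 5.67% of all genes (Myh2 by 1.74, Myl2 by 3.53, Myl3 by 1.66 and Casq2 by 1.01 on the log2 scale). In triceps the sum was 1213 to 5415 CPM in sham and 1896 to 3732 CPM after T3, and 0 of 9 were called by limma. The part of slow and oxidative fibres in the Ldhb values was not tested.

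Of the glycerol phosphate genes Gpd1 fell in gastrocnemius at both levels, and both fell in triceps after T3. Gpd1, the cytosolic dehydrogenase that makes glycerol 3-phosphate, was at 611, 514, 588 and 388 CPM in gastrocnemius sham, 159, 156, 273 and 269 CPM after T3, and 329, 309, 312 and 331 CPM after T9. All injured libraries lay below sham, and those after T3 lay below those after T9. The changes were −1.32 ± 0.20 after T3 and −0.69 ± 0.20 after T9 (SE, limma adjusted p = 0.00041 and 0.017). Without sham replicate 1 the T9 value was −0.61 (adjusted p = 0.054). In triceps Gpd1 was at 173 to 551 CPM (median 414) in sham, 55.9 to 192 CPM (median 142) after T3 and 256 to 519 CPM (median 437) after T9, with a T3 change of −1.58 ± 0.31 (SE, limma adjusted p = 0.0015). The T3 range met only the lowest sham value. Gpd1 is also a gene of fat cells, and the sum of 5 adipocyte markers in gastrocnemius was 209 to 442 CPM in sham, 143 to 228 CPM after T3 and 205 to 258 CPM after T9. One of the 5, Fabp4, fell there by 0.92 after T3, and 0 of 5 were called in triceps after T3 by limma. The part of fat cells in the Gpd1 values was not tested. Gpd2, the mitochondrial partner of the glycerol phosphate shuttle, was called in triceps after T3 alone (−0.81 ± 0.27, SE, limma adjusted p = 0.036) and lost that call in 11 of 33 other settings. In gastrocnemius after T3 it was called lower in 8 other settings. With each library centred on its median the T3 values were −0.86 in gastrocnemius and −1.04 in triceps (limma adjusted p = 0.0075 and 0.0013). With the library median as a covariate they were −1.24 and −1.45 (limma adjusted p = 0.0048 and 1.8e-06).

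The called glycogen synthesis genes rose after T3, except for Pgm1. In gastrocnemius 3 of 5 were called higher and 1 lower after T3, and 2 higher and none lower after T9. In triceps 4 of 5 were higher and 1 lower after T3. Over all genes 27.1%, 37.6% and 19% were called higher in these comparisons and 6.65%, 5.67% and 4.32% lower, so that 2 of 5 after T9 was near the background. With each library centred on its median the T9 calls in gastrocnemius were 1 higher and 2 lower: Gyg lost its call (0.21, adjusted p = 0.17), and Pgm1 (−0.85, adjusted p = 0.0019) and Gys1 (−0.84, adjusted p = 0.021) were called lower. Gyg was then not called after T3 either (0.29, adjusted p = 0.055). Pgm1 was called lower after T9 in 8 of the other settings and Gys1 in 7, leaving out sham replicate 4 among them. Gbe1 adds the branch points of glycogen, and had 43.6, 59.5, 60.47 and 32.8 CPM in gastrocnemius sham, 249, 293, 213 and 170 CPM after T3, and 145, 176, 146 and 148 CPM after T9. The lowest injured library was above the highest sham library. The fitted rise was 4.75-fold after T3 (2.25 ± 0.21 log2, SE, limma adjusted p = 1.1e-05) and 3.21-fold after T9 (1.68 ± 0.21, adjusted p = 0.00011). In triceps Gbe1 was at 33.8 to 61.0 CPM (median 42.0) in sham, 95.9 to 265 CPM (median 140) after T3 and 46.7 to 66.8 CPM (median 53.5) after T9. The T3 range lay above both others, with a 3.56-fold rise (1.83 ± 0.21 log2, SE, limma adjusted p = 2.3e-05).

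Ugp2, which makes the UDP-glucose that glycogen synthase uses, rose after T3 in both muscles. In gastrocnemius it was at 818, 726, 691 and 664 CPM in sham, 1653, 2987, 1292 and 997 CPM after T3, and 704, 790, 634 and 767 CPM after T9. The T3 libraries lay above all others and T9 overlapped sham. The T3 rise was 1.14 ± 0.25 (SE, limma adjusted p = 0.0046), and the T9 difference was −0.00. In triceps Ugp2 had 503 to 873 CPM (median 712) in sham, 1371 to 2359 CPM (median 1543) after T3 and 649 to 982 CPM (median 723) after T9, and rose after T3 by 1.37 ± 0.16 (SE, limma adjusted p = 3e-05). Gyg, glycogenin, which primes new glycogen, was at 285, 351, 342 and 261 CPM in gastrocnemius sham, 467, 405, 461 and 499 CPM after T3, and 445, 496, 467 and 469 CPM after T9. No injured library overlapped with sham. The rises were 0.57 ± 0.13 and 0.61 ± 0.13 in gastrocnemius and 0.78 ± 0.11 in triceps after T3 (SE, limma adjusted p = 0.0052, 0.0034 and 0.00013). With the library median as a covariate the gastrocnemius values were 0.30 (adjusted p = 0.16) and 0.22 (adjusted p = 0.45).

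Gys1, muscle glycogen synthase, was at 260, 419, 406 and 135 CPM in gastrocnemius sham, 417, 502, 376 and 399 CPM after T3, and 189, 216, 205 and 214 CPM after T9. Its sham libraries spread over both injured groups, and the changes of 0.60 and −0.44 were not called. In triceps it was at 73.8 to 462 CPM (median 215) in sham and 249 to 961 CPM (median 435) after T3, and rose by 1.28 ± 0.32 (SE, limma adjusted p = 0.0088) with overlapping ranges. With no term for the label number this was not called (1.28, adjusted p = 0.055). Pgm1, phosphoglucomutase, links glucose 6-phosphate with glucose 1-phosphate in both directions. It was at 1379, 1536, 1351 and 970 CPM in gastrocnemius sham, 577, 484, 829 and 808 CPM after T3, and 952, 938, 970 and 927 CPM after T9. The T3 libraries lay below all sham and T9 libraries. The T3 changes were −0.97 ± 0.19 in gastrocnemius and −0.95 ± 0.21 in triceps (SE, limma adjusted p = 0.002 and 0.0034), and within label number 60 the triceps value was −0.72 (adjusted p = 0.078).

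Of the glycogen breakdown genes, Phkg1 was the single one called. It codes for the catalytic subunit of muscle phosphorylase kinase, and shares a strand with the overlapping genes Chchd2 and Gm42790, so that its counts may hold some of their reads. Its level was 522, 527, 542 and 383 CPM in gastrocnemius sham, 245, 286, 325 and 338 CPM after T3, and 389, 343, 340 and 303 CPM after T9. T3 lay below sham, and T9 overlapped with sham replicate 4 alone. The changes were −0.72 ± 0.15 after T3 and −0.51 ± 0.15 after T9 in gastrocnemius, and −1.04 ± 0.21 after T3 in triceps (SE, limma adjusted p = 0.0033, 0.017 and 0.0021). Without T9 replicate 4 the T9 value was −0.46 (adjusted p = 0.057). Within label number 60 the triceps value was −0.71 (adjusted p = 0.060). Pygm was at 5322, 8823, 7996 and 2873 CPM in gastrocnemius sham, 6846 to 7983 CPM after T3 and 5817 to 6714 CPM after T9, with uncalled differences of 0.34 and 0.12. Phka1 and Phkb, the regulatory subunits α and β of the kinase, had uncalled differences of −0.66 and −0.12 after T3 in gastrocnemius. A shared feature limits the tests of Pygm, Phka1, Phkb, Pfkm, Gys1, Hk2, Hk1 and Gpd2. Over the 30 libraries their deviations from the group means had r of 0.87 or more with the library median. With that median as a covariate Phka1, Phkb, Pfkm and Gpd2 were called lower after T3 in both muscles. The values were −1.58, −0.67, −0.80 and −1.24 in gastrocnemius and −1.34, −0.62, −0.78 and −1.45 in triceps.

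The PFK-2 genes set the level of an activator of phosphofructokinase. Pfkfb1 was at 46.4, 41.1, 57.6 and 41.0 CPM in gastrocnemius sham, 27.7, 33.3, 23.2 and 17.2 CPM after T3, and 13.4, 13.9, 15.7 and 10.8 CPM after T9. The 3 groups did not overlap at all, with T9 lowest. Its changes were −0.90 ± 0.20 after T3 and −1.79 ± 0.20 after T9 (SE, limma adjusted p = 0.0046 and 6.1e-05). In triceps it was at 28.7 to 39.3 CPM (median 32.3) in sham, 33.6 to 60.3 CPM (median 40.2) after T3 and 23.4 to 34.6 CPM (median 30.3) after T9, and was not called against sham. Pfkfb3 ranged from 73.5 to 584 CPM within gastrocnemius sham alone, and was not called.

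Lower glycolysis and glycogen genes were set against each other within each library, as the mean log2 level of the 7 lower glycolysis genes minus the mean of the 9 glycogen genes. In gastrocnemius this difference, relative to the sham mean, was 0.20, −0.20, −0.27 and 0.27 in sham, −0.89, −0.69, −0.84 and −0.67 after T3, and −0.56, −0.87, −0.86 and −0.80 after T9. All injured libraries lay below all sham libraries, and both levels differed from sham by −0.77 ± 0.15 (SE, n = 4 per group). In triceps it was −0.44 to 0.58 (median −0.08) in sham, −0.83 to −0.11 (median −0.52) after T3 and −0.46 to 0.07 (median −0.21) after T9. The triceps groups overlapped, with differences of −0.50 ± 0.20 and −0.21 ± 0.19 (SE, n = 6 per group). Over the 30 libraries the deviations of this difference from its group means had r = −0.84 with the library median. With that median as a covariate the differences from sham were −0.50 and −0.38 in gastrocnemius and −0.18 and 0.03 in triceps after T3 and T9, and without the 4 libraries of lowest median they were −0.68 and −0.68, and −0.26 and −0.02. The part of the library median was not tested further. In gastrocnemius the lower glycolysis mean had moved by −0.50 after T3 and −0.68 after T9, and the glycogen mean by 0.27 and 0.09. The median change over all genes there was 0.27 and 0.40. In triceps after T3 the lower glycolysis mean had moved by −0.16 and the glycogen mean by 0.34, beside a median change of 0.23 over all genes.

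Synthesis and breakdown genes did not contribute alike. Against the 5 synthesis genes alone the T3 difference was −1.22 in gastrocnemius and −1.03 in triceps, and against the 4 breakdown genes alone it was −0.21 and 0.15. Among the 9 glycogen genes together 3 were higher and 2 lower after T3 in gastrocnemius, 2 higher and 1 lower after T9, and 4 higher and 2 lower after T3 in triceps. Beside the background of 27.1%, 37.6% and 19% higher and 6.65%, 5.67% and 4.32% lower, the 2 of 9 higher after T9 was a smaller share than over all genes. With each library centred on its median the T9 calls were 1 higher and 3 lower. Their median change was 0.34, −0.03 and 0.43, beside 0.27, 0.40 and 0.23 over all genes. The lower glycolysis median was −0.28, −0.49 and −0.05 in the same comparisons.

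T3 and T9 were also compared directly within each muscle. In gastrocnemius 2 of the 31 genes were called, both higher after T3, beside 1.63% of all genes (0.729% higher and 0.898% lower). They were Ugp2, 2.2-fold higher after T3 (1.14 ± 0.25 log2, SE, limma adjusted p = 0.041), and Pfkfb1, 1.85-fold higher (0.88 ± 0.20, adjusted p = 0.045). Neither call was kept in every setting, and leaving out gastrocnemius T3 replicate 2, whose Ugp2 level was the highest at 2987 CPM, left 0 calls. Leaving out sham replicate 1, T3 replicate 1 or any single T9 replicate also left 0, and leaving out sham replicate 4 gave 5. In triceps 5 genes were called higher and 8 lower after T3 than after T9, beside 4.95% and 2.65% of all genes (7.6% in either direction), and after quantile normalization 3 higher and 9 lower. The higher genes were Gpi1 (0.74), Gyg (0.56), Gbe1 (1.497), Ugp2 (1.14) and Pfkfb1 (0.54). The lower genes were Fbp2 (−1.21), the second Aldoa model (−2.97), Tpi1 (−0.78), Eno3 (−0.79), Ldha (−0.77), Gpd1 (−1.72), Pgm1 (−0.99) and Phkg1 (−1.11). Ranges of T3 and T9 did not overlap for 3 higher and 8 lower genes, beside 3.32% and 1.65% of all genes. In gastrocnemius this held for 10 higher and 4 lower genes, beside 5.88% and 12.3% of all genes. Within label number 60 there were 3 calls among the 31 in triceps, 2 higher and 1 lower.

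**Figure D4:**
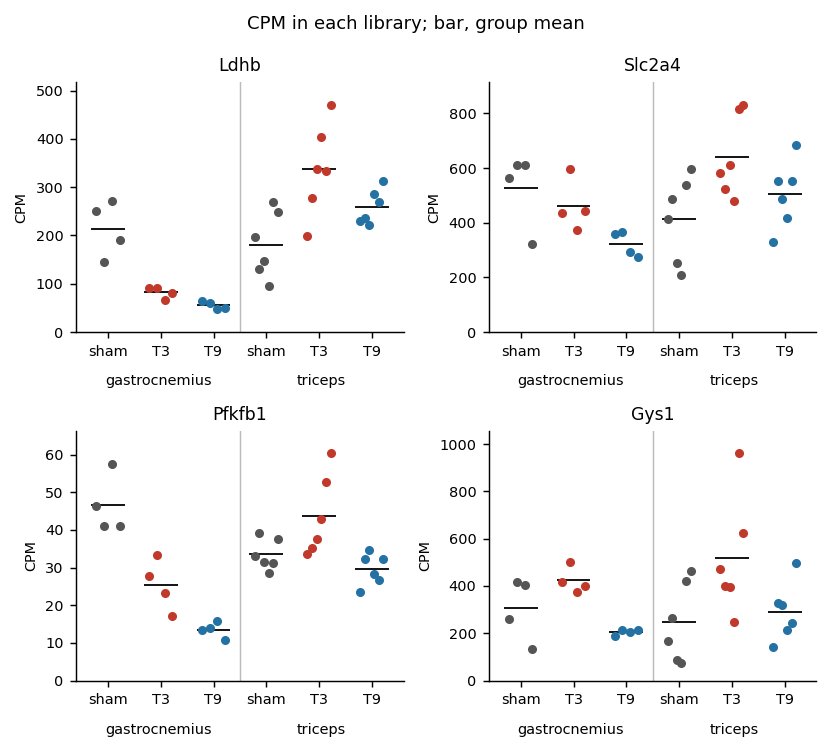
CPM (vertical axis, from 0) in each of the 30 libraries for Ldhb, Slc2a4, Pfkfb1 and Gys1, with a point per library and a bar at each group mean (n = 4 in gastrocnemius, n = 6 in triceps). The gastrocnemius T9 points of Ldhb (46.7 to 64.7 CPM) and Pfkfb1 (10.8 to 15.7 CPM) lie below every triceps point of the same gene.

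Whether injury changed the 2 muscles differently was tested within the 12 mice that gave both, as the change in gastrocnemius minus the change in triceps. For T3 a single gene of the 31 differed, lower in gastrocnemius, beside 1.24% of all genes (1.1% lower), and 8 had an unadjusted p under 0.05. It was Ldhb, with a difference of −2.45 ± 0.30 (SE, limma adjusted p = 0.0014). For T9 there were 10, 1 higher and 9 lower, beside 3.76% and 3.19% of all genes (6.95% in either direction). Ldhb again differed most (−2.74 ± 0.30, SE, limma adjusted p = 0.00029), followed by Fbp2 (−1.82 ± 0.21, adjusted p = 0.00039), Tpi1 (−1.64 ± 0.24, adjusted p = 0.0019), Pfkfb1 (−1.62 ± 0.25, adjusted p = 0.003) and Eno3 (−1.43 ± 0.23, adjusted p = 0.0038). Gys1 (−1.32), Slc2a4 (−1.12), Gpd1 (−0.96) and Pgk1 (−0.67) were also lower in gastrocnemius relative to triceps, and Gbe1 (1.32 ± 0.26, SE, limma adjusted p = 0.0099) was higher. Of the 10, 6 kept the call in every setting. Gys1, Slc2a4, Gpd1 and Pgk1 did not, and leaving out T9 mouse 12, 13 or 15 (numbers of the labels) left 6 calls.

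Between the 2 muscles of sham mice, 21 of the 31 genes were called higher in gastrocnemius and none lower, beside 26.8% and 12% of all genes (38.9% in either direction), with a median difference of 0.60 beside 0.27 over all genes. None of the 21 kept its call in every setting. Without sham mouse 4 (the number of the labels) there were 2 calls, and with the 4 libraries of lowest median left out, or with no term for the mouse, there were 0. Sham mouse 4 was also the only one of 12 mice whose 2 muscles did not deviate together (r = −0.75, against 0.12 or more in the others). The largest differences were those of Pfkfb3 (1.74), Phka1 (1.54) and Pygm (1.52). Eno3 (0.07), Ldha (0.04) and Pgam1 (0.05) lay close to 0.

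A wider list of pathway genes outside the 31 (glucose and lactate carriers, other isozymes, pentose phosphate entry, calmodulins and glycogen phosphatase parts) had 42 members in the table. After T3 in gastrocnemius 10 were called higher and 6 lower, and after T9 16 and 5, with medians of 0.31 and 0.40 beside 0.27 and 0.40 over all genes. Over all genes 27.1% and 6.65% were called after T3 and 37.6% and 5.67% after T9, so that the higher calls among the 42 were near the background and the lower calls a larger share. Pgd, of the pentose phosphate pathway, rose in gastrocnemius by 2.16 ± 0.20 after T3 and 2.20 ± 0.20 after T9 (SE, limma adjusted p = 1.4e-05 and 1.3e-05). Tbc1d1, a regulator of GLUT4 traffic, rose there by 2.37 ± 0.25 and 1.76 ± 0.25 (SE, limma adjusted p = 3.1e-05 and 0.00031). Bpgm, which makes 2,3-bisphosphoglycerate, fell, with changes of −1.57 after T3 and −1.003 after T9, and Slc16a3, the lactate exporter MCT4 of glycolytic fibres, fell by 0.85 and by 1.67 on the log2 scale. In triceps after T3 11 of the 42 were higher and 5 lower, beside 19% and 4.32% of all genes, among them Bpgm (−1.07), Slc16a3 (−0.76) and Slc16a1, the lactate carrier MCT1 (0.93). After T9 none of the 42 was called by limma in triceps, and 9 had an unadjusted p under 0.05.

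A list of 23 regulators of muscle glucose metabolism and fibre type had 7 higher and 4 lower members after T3 in gastrocnemius, 8 and 3 after T9, and 6 and 1 in triceps after T3. All genes had 27.1% higher and 6.65% lower calls, 37.6% and 5.67%, and 19% and 4.32% in these comparisons, so that the higher calls of the list were near the background. In triceps after T9 limma called 0, and 3 had an unadjusted p under 0.05. Ppargc1a, the coactivator PGC-1α of mitochondrial and oxidative genes, rose in triceps after T3 by 2.27 ± 0.31 and fell in gastrocnemius after T9 by 1.25 ± 0.31 on the log2 scale (SE, limma adjusted p = 9.9e-05 and 0.0073). Its change differed between the muscles by −3.04 ± 0.26 for T3 and −3.10 ± 0.26 for T9 (SE, limma adjusted p = 0.0001 and 5.5e-05). Esrra, a nuclear receptor that works with PGC-1α, rose by 0.70 in triceps after T3 and fell by 1.18 in gastrocnemius after T9. Nr4a3, an exercise-responsive nuclear receptor, fell in gastrocnemius after T3 by 3.47, and Nr4a1 of the same family fell by 0.69 after T3 and by 1.48 after T9.

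Short motifs were counted on either strand in the 250 bases upstream of 28 of the 30 symbols with a RefSeq promoter, beside 8375 genes of the table. ACGTG, the core shared by hypoxia-response and some E-box sites, was in 13 of 28 (46.4%), beside 25.96% of all. CANNTG, which overlaps with it in CACGTG, was in 78.6% beside 61.4%, CATTCC in 14.3% beside 12.7%, and AAGGTCA in 7.14% beside 3.46%. TCAGGTT and GTAAACA were in none of the 28, beside 3.39% and 2.56%. Of 10 genes lower in gastrocnemius after T3 with a promoter, 4 held ACGTG (Fbp2, Ldha, Pgk1 and Pgm1), and of 4 higher genes 1 did (Ugp2). These are matches of letters and were not tested as binding sites.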

How the data were processed

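RNA from 30 libraries (12 gastrocnemius, 18 triceps) was made into stranded polyA libraries and sequenced in pairs on a NovaSeq, per the labels' protocols. The submitters' processing notes name HISAT2 2.1.0, featureCounts, Subread 1.5.1, limma and GRCm38. The annotation release, the strand setting and any filter on low genes are not stated in the labels. The deposited table holds log2 CPM values, which the authors made as reads plus 0.5 per 1000000 reads (read from the values). Whole reads could be recovered from 100% of values within 0.01 reads, and give the depths of 13293557 to 88826845 reads. Only the sampling error of counting follows from depth. The 31 genes had 22 or more reads in every library.

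Tests were made with limma 3.58.1 (R 4.3.3), with a trend in its empirical Bayes step, two-sided p-values and Benjamini-Hochberg adjustment over all genes at a threshold of 0.05, after a filter of log2 value at least 0 in at least 4 libraries. The gastrocnemius fit used its 12 libraries. The triceps fit used 18 and a covariate for the label number, 57 or 60, at the start of each library description. No source says what this number stands for, and it falls on 2 and 4 libraries of each group. Muscles were compared over 24 libraries of 12 mice with the mouse as a block. The 2 muscles of a mouse deviated together (r over 0.1) in 11 of 12 mice, with a mean r of 0.32. For libraries of different mice the mean r was −0.11, with a range of −0.79 to 0.86. Deviations from a group mean cancel within the group, so the value for different mice is tied to that for the same mouse. It is therefore not a separate control. No 2 replicates agreed within sampling noise (chi-square per degree of freedom 9.78 or more). The fits recovered changes in simulated data before they were used. The simulated spread was independent between genes, with no shift of library medians and no mouse effect, so this check could not cover either.

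Alternatives covered scaling, filters, a pseudocount, library weights, covariates, blocks and leaving out each library or mouse. The planned count test was replaced by limma with voom weights on the recovered reads, since the deposited unit is log2. Any of the 31 genes could be named. Values by library were given for up to 2 genes per role and comparison with the smallest adjusted p, for isozyme pairs, and, chosen after their values were seen, for further genes. Related genes outside the 31 are those of a list with the smallest adjusted p, with family members and genes named in several comparisons added after their values were seen. The genes and lists were chosen with earlier results of these data known. Exon lengths and positions are from GENCODE vM21 (GRCm38), and promoters from RefSeq (GRCm38.p6).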

Additional observations from a re-analysis of the deposited data

Results flagged for a closer look

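In 9 of 186 sets of a gene and a group, 1 library stood farther from the rest of its group than Dixon's 95% limit. Such a limit gives about 1 in 20 in independent sets. These sets share the same libraries, so the count was not set against chance. Slc2a4 was low in gastrocnemius sham replicate 4 (324 CPM), and so was Phkg1 (383 CPM). Pgk1 was high in triceps sham replicate 2 (1256 CPM), and Eno3 in triceps sham replicate 3 (8245 CPM). After injury, Pgam2 was high in gastrocnemius T9 replicate 1 (1043 CPM), Gbe1 in gastrocnemius T9 replicate 2 (176 CPM), Ldha in triceps T9 replicate 5 (2760 CPM) and Hk1 in gastrocnemius T3 replicate 2 (6.78 CPM). Phka1 was low in gastrocnemius T3 replicate 2 (294 CPM).

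The change after injury differed between the 2 muscles of the same mice, by the limma test of the difference, for 11 values, each given as gastrocnemius minus triceps on the log2 scale. After T3 it was −2.45 for Ldhb. After T9 it was −2.74 for Ldhb, −1.82 for Fbp2, −1.64 for Tpi1, −1.62 for Pfkfb1, −1.43 for Eno3, −1.32 for Gys1, −1.12 for Slc2a4, −0.96 for Gpd1, −0.67 for Pgk1 and 1.32 for Gbe1.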

How the results depend on the processing

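Over all comparisons 7533 values of single genes were recomputed. Of these 7104 stayed on their side of the threshold with no called value reversed (353 uncalled values changed sign), 226 lost the call, 201 gained one, and 2 called values reversed once a length and GC trend was removed, namely Gpi1 (−0.36) and Gpd2 (−0.45) in gastrocnemius after T9. Calls kept under every setting were 13 of 16 (gastrocnemius T3), 9 of 14 (gastrocnemius T9), 10 of 19 (triceps T3) and 3 of 13 (triceps T3 against T9). Leaving out 1 library gave 16 to 19, 12 to 18, 18 to 19 and 11 to 14 calls in these comparisons, and 0 in triceps T9 against sham.

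Counts that moved by over 1.5 times were as follows, and the cause was not tested unless fewer samples are named. For gastrocnemius T3 against T9 (2 calls) there were 4 with centring, 1 with quantile normalization, 11 with library weights, 11 with the compared groups alone, 5 without the 4 libraries of lowest median, 1 with voom weights, 4 with median-of-ratios scaling, 4 with the length and GC trend removed, and 0 to 5 without 1 library. For gastrocnemius against triceps in sham (21) there were 12 with centring, 11 with median-of-ratios scaling, 13 with the trend removed, 0 without the low-median libraries, 0 without the mouse block and 2 to 22 without 1 mouse. For the muscle difference after T3 (1) there were 2 with quantile normalization, 3 with library weights and 5 with the trend removed. For that after T9 (10) there were 18 with library weights, 20 with the trend removed and 6 to 13 without 1 mouse. Library weights gave 1 call in triceps T9 against sham, and the trend removal gave 22 in gastrocnemius T9 against sham. With label number 60 alone, and so fewer samples, there were 12 calls in triceps T3 against sham and 3 in T3 against T9.

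The replicate block left 0 calls in gastrocnemius T3 against T9 and did not move any other count by over 1.5 times. The replicate numbers were not taken to pair samples across surgery groups within a muscle, with a mean r between libraries of the same replicate number of −0.02 in gastrocnemius and 0.17 in triceps.

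The difference between lower glycolysis and glycogen genes in gastrocnemius became −1.04 (T3) and −1.08 (T9) with Tpi1, Ldha and Ldhb added, and −0.53 (T3) without Gbe1. Against synthesis genes alone it was −1.22 (gastrocnemius T3), −1.03 (triceps T3), −0.26 (gastrocnemius T3 minus T9) and −0.79 (triceps T3 minus T9). Against breakdown genes alone it was −0.21 (gastrocnemius T3), −0.53 (gastrocnemius T9), 0.32 (gastrocnemius T3 minus T9), 0.15 (triceps T3) and 0.32 (triceps T3 minus T9). With the library median as a covariate the values in gastrocnemius after T3 and T9 were −0.50 and −0.38 for this difference, −0.89 and −0.71 for Eno3 to Eno1 and −0.33 and −0.19 for Pgam2 to Pgam1. T3 minus T9 was then −0.18 and −0.14 for these 2 pairs, and Hk2 to Hk1 after T9 was 0.27. The planned count test was not run, since the deposited unit is log2. The 2 voom fits, the trend removal and the settings of the library median for ratios were chosen after seeing the data. Members called lower after T3 in gastrocnemius had a median transcript length of 1711 bases, beside 3302.5 over all genes, and the part of transcript length was not tested further. Depth limits the second Aldoa model most among the called genes, with 1.41 CPM in its lowest library.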
